A study of Mus musculus with 18 samples.

Results

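The response to oestradiol was measured in whole ovaries of Pik3cd+/- mice by comparing 3 arrays made after oestradiol (E2) with 3 arrays of untreated ovaries, 6 of the 18 arrays in the series, chosen by their titles. Each array was an Affymetrix Mouse Genome 430 2.0 chip hybridised with ovarian RNA, and the 3 arrays of a group are named biological replicates. E2 was injected intraperitoneally 3 times, 24 h apart, as 0.03 ml per mouse, and ovaries were taken 72 h after the first injection; the concentration is not stated in the sources used here. All animals were females labelled 21 days old, on a mixed C57B6J/S129 background, and both groups carried 1 working copy of Pik3cd, the gene of the delta catalytic subunit of phosphoinositide 3-kinase. The labels do not say whether 21 days is the age at the first injection or at dissection. The other groups used here are Pik3cd-/- ovaries, untreated and after the same E2 schedule, and Pik3cd+/- ovaries 44 h after a single 10 IU injection of PMSG, a gonadotropin preparation with FSH-like activity. Pik3cd-/- ovaries after the same PMSG injection enter the model of all 18 arrays and a comparison of list levels. There was no vehicle-injected group and no Pik3cd+/+ group, so effects of E2, of being injected and of elapsed time cannot be told apart, and the heterozygotes are the reference, not wild-type mice.

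Oestradiol acts mainly through 2 nuclear receptors, encoded by Esr1 and Esr2, which bind DNA at oestrogen response elements or are tethered there by other factors such as AP-1. In the rodent ovary ERbeta (Esr2) is the main form in granulosa cells and ERalpha (Esr1) lies in theca and stromal cells. Oestradiol promotes granulosa growth and the response of follicles to FSH, and it also restrains theca steroidogenesis and feeds back on the pituitary gonadotropins. Whole ovaries of this age hold many growing follicles, with oocytes, granulosa, theca, stroma, vessels and resident macrophages. Fewer cells of a type and less RNA per cell cannot be told apart in such samples.

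Values are signals on a linear scale, given here per array in replicate order, and changes are differences of log2(signal + 8.58), E2 minus untreated, with the standard error (SE) of a limma model of all 18 arrays. The pseudocount makes these changes smaller than the ratio of the signals for dim genes. A gene was called, and is said to have risen or fallen, when its limma p-value was under 0.05 after Benjamini-Hochberg adjustment across all 12713 genes tested. The 6 arrays had medians of 48.9 to 50.2 and correlated at 0.993 to 0.996 within groups, the median change of all genes was 0.0035, and no further scaling was applied. Of 6 probe sets annotated to Pik3cd, 3 passed the filter on low signals and were tested, and 1 of these differed between the genotypes; it read 70.4 on average in Pik3cd+/- and 22.4 in Pik3cd-/- ovaries after E2, and 67.1 against 26.2 untreated (limma adjusted p = 1.7e-05 and 2.6e-04). Granulosa, theca and oocyte markers were bright on all 6 arrays. Untreated replicate 2 stood apart in oviduct genes: the mean log2 level of 11 such genes was 7.26 there against 5.62 and 5.78 on the other untreated arrays and 5.53 to 5.67 after E2. The array with oviduct signal is therefore left out in turn, with every other array, beside the results. Adipocyte genes also varied within both groups. Their mean log2 level ranged from 8.75 to 9.76 untreated (median 8.91) and from 8.46 to 9.55 after E2 (median 8.87).

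E2 changed 206 of 12713 genes, 1.62% of those tested: 150 rose (1.18%) and 56 fell (0.44%). Among the lists examined, the interferon and immediate early genes held the most rises, with 11 and 7. The largest rises were of Ifit1, Cd83, Chil3, Itih2 and Rtp4, and the largest falls of Zbtb16, Scara5, Cldn1, Aard and Pcdh8. Most changes were modest: the median rise was 0.70 and the median fall -0.61 on the log2 scale, 29 genes rose at least 2-fold (0.228% of all tested) and 8 fell at least 2-fold (0.0629%). For every called gene the 3 E2 arrays lay all above or all below the 3 untreated arrays, a pattern shown in the upward direction by 14.2% of all genes tested and in the downward direction by 14.6%, while 17% of genes had an unadjusted p under 0.05. The count moved with the arrays in the fit. It was 83, 102 and 33 without untreated replicates 1, 2 and 3 and 79, 49 and 110 without E2 replicates 1, 2 and 3. A model of these 6 arrays alone called 764 genes, 366 higher and 398 lower, among them 191 of the 206. Of the 206, 23 were called in all 6 leave-one-out fits, among them the rises of Ntn4, Serpinb9b, Jun, Smad6, Cebpb and Rarg and the falls of Il13ra2, Mapk13, Tcf21 and Hsp90aa1.

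**Figure D1:**
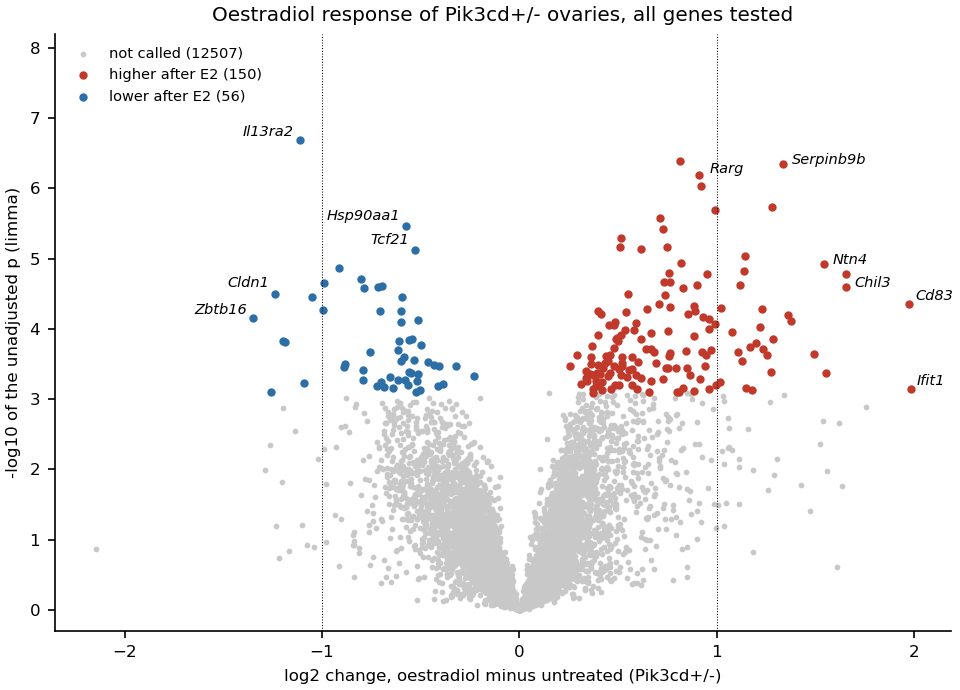
Each point is 1 of the 12713 genes; the x axis is the log2 change, E2 minus untreated, in Pik3cd+/- ovaries and the y axis is -log10 of the unadjusted limma p. Red points are the 150 genes that rose and blue points the 56 that fell, and the dotted lines mark a 2-fold change; the rises reach 1.98 (Ifit1) and the falls -1.35 (Zbtb16).

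In the main fit no call was made among the receptors and the standard oestrogen targets, where the 1.62% of all genes called would leave fewer than 1. None of 8 tested genes of oestrogen receptors and their coregulators passed, with a median change of -0.06, and none of 20 oestrogen target genes passed, with a median of 0.05 against 0.0035 for all genes. At these numbers the absence of calls does not set the lists apart from other genes. Esr1 read 1318, 1199 and 1001 on the untreated arrays and 790.97, 902 and 804 after E2. All 3 E2 arrays lay below the untreated ones, but the change of -0.48 ± 0.23 did not pass in the main fit (adjusted p = 0.31). The model of the compared arrays alone called Esr1 lower. Esr2 read 580.5, 508 and 455 untreated and 679.9, 623 and 617 after E2, again without overlap but in the other direction (log2 change 0.32 ± 0.15, adjusted p = 0.309). Pgr, the progesterone receptor gene and a direct target of ERalpha in the uterus, spread widely within each group, from 65.7 to 148 untreated and from 113 to 261 after E2, and its change of 0.68 ± 0.59 had an adjusted p of 0.601. Greb1, a coactivator gene induced by oestrogen in breast cells, read 2607, 2797 and 3460.3 untreated and 3295, 2861 and 2758 after E2, fully overlapping (log2 change 0.01 ± 0.17, adjusted p = 0.979). Aqp5, a water channel gene, had the largest positive change of the list, from 60.7, 63.1 and 65.7 to 92.6, 153 and 110.3, and did not pass (adjusted p = 0.157). Ccnd1, which encodes cyclin D1, had non-overlapping lower values after E2 and a change of -0.59 ± 0.17 (adjusted p = 0.0924). Ltf, the lactoferrin gene of the oestrogen-primed uterus and oviduct, was bright only on untreated replicate 2, at 608, the array with the oviduct signal, and on E2 replicate 2, at 138.

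Promoter windows were searched for the palindromic oestrogen response element, GGTCANNNTGACC, on both strands of the 250 bases before and 50 bases after each RefSeq gene start (assembly GRCm38.p6). It occurred in 0.07% of all 32851 windows and in the windows of 1 of 10237 tested genes that had one (0.00977%). None of the 118 risen and 45 fallen genes with a window held it. With so rare an element and so few genes, this says only that these letters are not in these windows. The interferon-stimulated response element, searched as GAAANNGAAA on both strands, occurred in 3.44% of all windows and for 3.47% of tested genes with a window. It lay in the windows of 12 of 22 genes of the interferon list (54.5%), of 9 of 118 risen genes (7.63%) and of 0 of 45 fallen genes. Among the 11 list members that rose, 7 had a window and 4 of these held the element. The 150 bases before the start of those 4 genes are shown because these genes moved together and share the element. Capitals mark each match, on either strand.
Ifit1, chr19:34640739-34640888, plus strand: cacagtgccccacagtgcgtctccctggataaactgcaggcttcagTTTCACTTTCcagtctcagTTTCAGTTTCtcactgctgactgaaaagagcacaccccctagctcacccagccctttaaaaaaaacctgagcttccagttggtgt
Rsad2, chr12:26456453-26456602, minus strand: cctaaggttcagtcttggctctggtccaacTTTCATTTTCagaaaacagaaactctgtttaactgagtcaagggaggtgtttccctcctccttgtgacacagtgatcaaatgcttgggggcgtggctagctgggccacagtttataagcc
Oas1a, chr5:120907526-120907675, minus strand: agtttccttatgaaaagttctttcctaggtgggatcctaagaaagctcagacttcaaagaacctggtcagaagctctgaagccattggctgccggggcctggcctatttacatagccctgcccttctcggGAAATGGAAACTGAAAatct
Gbp2, chr3:142620513-142620662, plus strand: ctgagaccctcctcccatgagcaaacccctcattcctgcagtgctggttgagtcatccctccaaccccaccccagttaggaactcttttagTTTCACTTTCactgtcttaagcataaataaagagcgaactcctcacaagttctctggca
Ifit1 held 2 separate matches, which begin 104 and 85 bases before the start, Oas1a 2 overlapping ones beginning 20 and 14 bases before it, Rsad2 1 at 120 bases and Gbp2 1 at 59 bases.

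The interferon-induced genes formed the largest coherent rise. Of 30 tested members of the interferon list, 11 rose and none fell, against 1.18% of all genes that rose; the list's median change was 0.82, and in 26 of 30 members all 3 E2 arrays lay above the untreated ones, against 14.2% of all genes. Ifit1, which encodes a protein that binds foreign RNA, read 131, 84.7 and 49.8 on the untreated arrays and 261, 419 and 398 after E2 (log2 change 1.98 ± 0.47, adjusted p = 0.0472), the largest rise in the data. Untreated replicate 3 was the lowest of its group and E2 replicate 1 the lowest of the treated arrays, as they were in the mean level of the whole list. Rtp4, an interferon-induced receptor chaperone gene, went from 782, 589.6 and 402 to 1431, 1926 and 1764 (log2 change 1.56 ± 0.35, adjusted p = 0.0364). Irf7, the transcription factor that amplifies type I interferon production, went from 83.9, 94.4 and 47.4 to 156, 244 and 276 (log2 change 1.49 ± 0.31, adjusted p = 0.0281). Irf9, an interferon regulatory factor that takes part in the type I interferon response, went from 333, 288 and 239 to 455, 547 and 563, a smaller rise of 0.85 ± 0.19 (adjusted p = 0.0337). The antiviral effectors behaved alike in direction but not in size. Rsad2, the viperin gene, rose by 1.18 ± 0.28 from 214.95, 207 and 165 to 372, 457 and 539.03. Oas1a and Oas2, which encode 2 oligoadenylate synthetases, rose by 0.91 ± 0.21 and 0.68 ± 0.14. Gbp2, a guanylate-binding GTPase gene, rose by 0.81 ± 0.20 and lay just inside the threshold (adjusted p = 0.0498). Lgals3bp, which encodes a secreted galectin-binding protein, rose by 1.25 ± 0.26, and Parp14 and Zbp1, an ADP-ribosyltransferase and a sensor of Z-form nucleic acids, by 0.95 ± 0.20 and 0.76 ± 0.16.

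Several other members with changes as large missed the threshold. Usp18, the deubiquitinase that damps interferon signalling, read 92.9, 155 and 45.8 untreated and 245, 348.03 and 374 after E2, a change of 1.75 ± 0.45 with an adjusted p of 0.0633. Ifit3 had a change of 1.62 ± 0.44 (adjusted p = 0.0734) and overlapped in no array, its untreated replicate 1 reading 205 against 261 on E2 replicate 1. At the other end Cxcl10, a chemokine gene that interferon induces strongly, stayed dim at 63.05, 56.5 and 44.9 untreated and 56.2, 63.5 and 64.7 after E2 (log2 change 0.15 ± 0.20), and Mx1 was below the array median on all 6 arrays. Outside the list, and picked after their values were seen, the RNA sensor gene Ddx58 (RIG-I), Ddx60, Irgm1, Phf11d, Sp100 and the RNA-editing enzyme gene Adar also rose, by 0.62, 0.94, 0.96, 1.13, 0.75 and 0.52. The mean log2 level of the interferon list was 7.64, 7.50 and 7.22 on the untreated arrays and 8.06, 8.42 and 8.43 after E2. Within the PMSG groups this level ranged from 7.62 to 8.08 in Pik3cd+/- and from 7.27 to 8.16 in Pik3cd-/-. It ranged from 7.29 to 7.58 in untreated Pik3cd-/- ovaries and from 7.37 to 7.73 in Pik3cd-/- ovaries after E2. Of these 17 calls, 15, 13 and 16 ended when untreated replicate 1, 2 or 3 was left out and 8, 16 and 15 ended without oestradiol replicate 1, 2 or 3, with an adjusted p of up to 0.205 (Ifit1), and Adar kept the call in all 6 of these fits. The calls of Adar, Ddx58, Gbp2, Rsad2 and Sp100 ended in the fit with the most variable probe set of each gene.

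The mean level of the macrophage list was higher on all E2 arrays at the same time. Of 18 tested macrophage genes, 16 had all 3 E2 arrays above the untreated ones, against 14.2% of all genes, and the median change was 0.55, but only Chil3 was called. Chil3, a chitinase-like gene of alternatively activated macrophages, read 11.97, 9.47 and 10.1 untreated and 30.03, 50.6 and 86.2 after E2 (log2 change 1.66 ± 0.28, adjusted p = 0.0099); it was the dimmest of the large rises, with all untreated values near the pseudocount. Csf1r, the receptor gene that marks macrophages, read 461, 457.01 and 454 and 719.6, 632 and 675 (log2 change 0.55 ± 0.42, adjusted p = 0.549), and the complement gene C1qa 182, 199 and 170.3 and 341, 334 and 343 (log2 change 0.86 ± 0.35, adjusted p = 0.226). Neither pair of groups overlapped, and neither gene passed. The mean level of the list was 6.75, 6.83 and 6.61 untreated and 7.29, 7.29 and 7.31 after E2. The SE of each gene pools the spread within all 6 groups, and on the Pik3cd-/- E2 arrays the list's mean level ranged from 6.61 to 8.14. Itgam and Ccr2, other markers of the list, were below the array median on all 6 arrays. The part of macrophages in the interferon rise was not tested. Cd83, a surface protein gene of activated antigen-presenting cells, showed one of the largest rises, from 60.3, 149 and 46.3 to 329.6, 335 and 303 (log2 change 1.98 ± 0.35, adjusted p = 0.0136), with untreated replicate 2, the array with oviduct signal, above the other untreated arrays. The Fc receptor genes Fcgr1 and Fcgr4 rose by 0.97 ± 0.20 and 0.64 ± 0.13. T cell and B cell markers were at the bottom of the scale: 10 of 12 lymphocyte genes were below the array median on all 6 arrays. Of the 4 calls, 3, 0 and 4 ended when untreated replicate 1, 2 or 3 was left out and 2, 3 and 2 ended without oestradiol replicate 1, 2 or 3, with an adjusted p of up to 0.128 (Fcgr1).

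**Figure D2:**
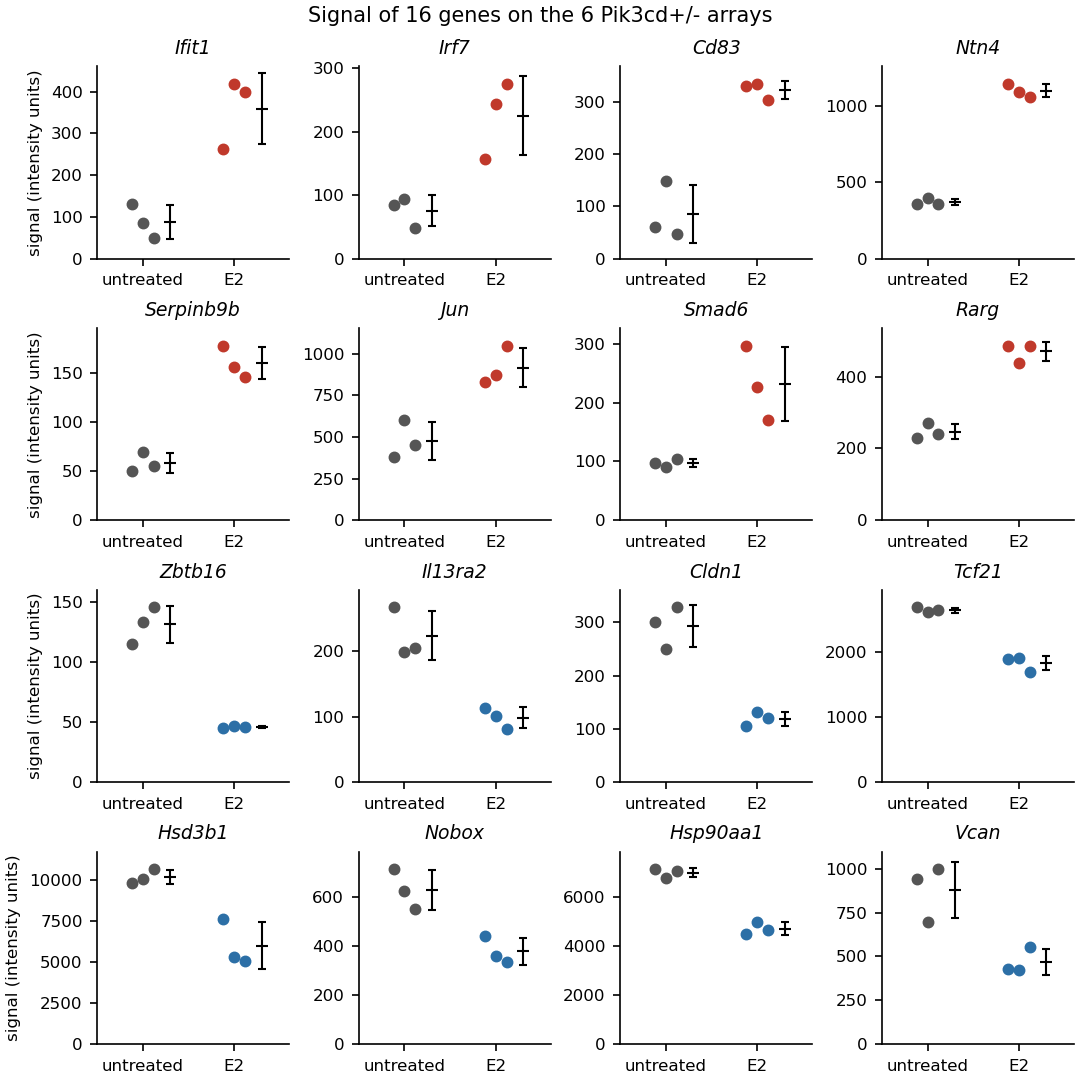
Signals on a linear scale of 16 genes on the 3 untreated (grey) and 3 E2 (coloured) Pik3cd+/- arrays, in replicate order from left to right; the bar to the right of each group is the mean ± SD (n = 3). In all 16 genes the groups do not overlap; E2 replicate 1 is the lowest E2 array for Ifit1 and Irf7 and the highest for Hsd3b1.

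Immediate early genes, which cells switch on within minutes of a growth factor or hormone signal, were in part higher 72 h after the first injection. Of 26 tested, 7 rose and none fell, against 1.18% of all genes that rose; the median change was 0.38, and 15 had all E2 arrays above the untreated ones, against 14.2% of all genes. Jun, a subunit of AP-1, read 378, 599 and 451 untreated and 829.5, 869.00 and 1047 after E2 (log2 change 0.95 ± 0.16, adjusted p = 0.00905). Nr4a1, an orphan nuclear receptor gene induced by LH in theca and granulosa cells, went from 162, 181 and 176 to 264, 281 and 471, with E2 replicate 3 the highest (log2 change 0.89 ± 0.16, adjusted p = 0.0141). Gadd45b, a stress-inducible gene, went from 243, 282 and 188 to 692, 635 and 391 (log2 change 1.22 ± 0.23, adjusted p = 0.0178), here with E2 replicate 3 the lowest, so the induced genes did not share 1 order of arrays. Atf3, Btg2, Ccn1 and Maff rose by 0.52 ± 0.11, 0.69 ± 0.15, 0.83 ± 0.20 and 0.76 ± 0.14. Cebpb, a transcription factor gene needed for luteinisation, rose from 1009.8, 1168 and 1103 to 1934, 1841 and 1779 (log2 change 0.76 ± 0.12, adjusted p = 0.00905), whereas Ptx3, which encodes a matrix protein of the expanded cumulus, fell from 116, 132 and 130.5 to 81.4, 70.8 and 86.9 (log2 change -0.61 ± 0.12, adjusted p = 0.0224). Those 2 were the calls among 8 tested LH-responsive and cumulus genes; 9 of the 16 matched members, Ptgs2, Has2 and Tnfaip6 among them, were below the array median on all 6 arrays.

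The cyclic AMP pathway was examined with a list drawn up after values had been seen, so its counts are a description. Of 27 members tested, 4 rose and none fell, against 1.18% of all genes that rose. They were Adcy9, an adenylyl cyclase gene (0.82 ± 0.13), Pde4b and Pde7b, 2 phosphodiesterase genes (1.14 ± 0.19 and 0.73 ± 0.17), and Sik1, a cAMP-inducible kinase gene (0.55 ± 0.10). Pde4b read 43.9, 48.7 and 51.96 untreated and 138, 90.5 and 125 after E2, more than doubling on 2 of the 3 arrays against the untreated mean. Among these immediate early, luteinisation and cyclic AMP genes, of 12 calls, 6, 4 and 7 ended when untreated replicate 1, 2 or 3 was left out and 5, 6 and 3 ended without oestradiol replicate 1, 2 or 3, with an adjusted p of up to 0.184 (Pde7b), and Adcy9, Cebpb, Jun, Pde4b and Sik1 kept the call in all 6 of these fits.

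In the BMP and TGF beta list 3 of 30 rose and none fell, against 1.18% of all genes that rose, with a median of 0.08. Bmp2, a ligand made by granulosa cells, read 398, 455 and 434 untreated and 902, 719 and 925 after E2 (log2 change 0.96 ± 0.23, adjusted p = 0.0472). Tgfb1, the ligand TGF beta 1, was dimmer and rose from 81.00, 83.4 and 75.1 to 138.97, 123 and 107 (log2 change 0.57 ± 0.13, adjusted p = 0.0442). Smad6, the inhibitory SMAD that BMP signals induce as a brake, went from 97.5, 91.3 and 104 to 297, 227 and 171 (log2 change 1.14 ± 0.18, adjusted p = 0.0074). The untreated arrays of Smad6 lay close together and E2 replicate 1 was the highest. Atoh8, another BMP-responsive transcription factor gene, named after its values were seen, rose by 0.66 ± 0.16. Grem1, the BMP antagonist of the cumulus, had the most negative change of the list, -1.08 ± 0.65, but its E2 arrays read 119.9, 46.4 and 28.5 and overlapped the untreated 90.2, 119 and 187 (adjusted p = 0.427).

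In the Wnt list, 1 of 20 was called, against 1.62% of all genes. Wnt11 fell from 66.9, 74.4 and 52.6 to 40.9, 45.7 and 38.7 (log2 change -0.53 ± 0.11, adjusted p = 0.0308). Outside the lists, and picked after their values were seen, Lgr6, Fzd5 and Pdgfb rose. Lgr6, the gene of a receptor that enhances Wnt signals, rose from 195, 234 and 186 to 359.9, 579 and 446 (log2 change 1.12 ± 0.19, adjusted p = 0.0099). The Wnt receptor gene Fzd5 rose by 0.61 ± 0.12. The platelet-derived growth factor gene Pdgfb rose from 246, 223 and 160.4 to 382, 459 and 337 (log2 change 0.89 ± 0.18, adjusted p = 0.0215). Edn3, the endothelin 3 gene, went the other way, from 243, 175 and 206.05 to 139, 102 and 106 (log2 change -0.80 ± 0.13, adjusted p = 0.0099). None of 12 hedgehog genes passed (median -0.13). For the BMP, Wnt and other ligand genes named here, of 9 calls, 4, 4 and 6 ended when untreated replicate 1, 2 or 3 was left out and 6, 8 and 3 ended without oestradiol replicate 1, 2 or 3, with an adjusted p of up to 0.207 (Atoh8), and Smad6 kept the call in all 6 of these fits.

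Several of the called rises were of single secreted or matrix genes, gathered here after their values were seen; of the 20 genes of the basal lamina and matrix list none rose. Ntn4, a laminin-related netrin of basement membranes, rose from 357, 394 and 359 to 1142, 1091 and 1056 (log2 change 1.55 ± 0.25, adjusted p = 0.00831), with arrays so close within groups that the groups lay far apart. Itih2, which encodes a serum protein that crosslinks hyaluronan, rose from 124, 136 and 78.9 to 476, 321 and 318 (log2 change 1.65 ± 0.27, adjusted p = 0.00905). Thbs4 and Reln, the genes of thrombospondin 4 and of the large matrix protein reelin, were bright before treatment and rose from 1097, 1556 and 835 to 2575, 2498 and 2898 and from 986, 590.3 and 536.97 to 1749, 1798 and 1229 (1.23 ± 0.22 and 1.20 ± 0.24). Vit, the vitrin gene, rose by 0.99 ± 0.14, and Scg5, which encodes the chaperone of a prohormone convertase, by 1.17 ± 0.24. Fgd5, an exchange factor gene for Cdc42 known from endothelium, rose from 237, 251 and 223.97 to 663, 664 and 566 (log2 change 1.37 ± 0.26, adjusted p = 0.0163). It was the only call among 18 endothelial genes, whose median change was -0.07. In a list of semaphorins, netrins and plexins drawn up after values had been seen, 3 of 24 rose and none fell. They were Ntn4, Sema4d (0.71 ± 0.13) and Sema3b (0.79 ± 0.18), and of all genes 1.18% rose. Of these 9 calls, 2, 2 and 7 ended when untreated replicate 1, 2 or 3 was left out and 4, 4 and 1 ended without oestradiol replicate 1, 2 or 3, with an adjusted p of up to 0.158 (Sema3b), and Ntn4 and Vit kept the call in all 6 of these fits.

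The insulin and IGF1 receptor genes both rose, by small steps. Insr read 502, 471 and 485 untreated and 692, 583 and 688 after E2 (log2 change 0.42 ± 0.10, adjusted p = 0.042), and Igf1r 1322, 1227 and 1247 and 1598, 1524 and 1685 (log2 change 0.34 ± 0.08, adjusted p = 0.0397). They were the 2 calls among 20 insulin and IGF genes, against 1.62% of all genes called. The ligand gene Igf1 overlapped between the groups (0.05 ± 0.20). Pik3ip1, which encodes an inhibitor that binds the catalytic subunits of phosphoinositide 3-kinase, rose from 666, 704.96 and 458 to 1371, 1303 and 1157 (log2 change 1.08 ± 0.21, adjusted p = 0.0194). The kinase genes Pim1 and Pim3, which cytokine receptors induce through STAT5 and STAT3, rose by 0.50 ± 0.10 and 0.58 ± 0.11. Rarg, the retinoic acid receptor gamma gene, rose from 229, 269.6 and 239 to 485, 439.01 and 486.04 (log2 change 0.91 ± 0.11, adjusted p = 0.00204), and Cyp1b1, which encodes an enzyme that hydroxylates oestradiol, from 2526, 2691 and 2263 to 3769.9, 3737 and 3211 (log2 change 0.52 ± 0.12, adjusted p = 0.0374). Gpx3, the secreted glutathione peroxidase gene, rose from 878, 1074 and 998 to 2319, 2482 and 2402 (log2 change 1.29 ± 0.26, adjusted p = 0.0222). Smaller metabolic rises were seen for Coq8a of coenzyme Q synthesis (0.62 ± 0.09), Pgd of the pentose phosphate pathway (0.51 ± 0.08), the taurine transporter gene Slc6a6 (0.71 ± 0.10) and the thiamine transporter gene Slc19a2 (0.92 ± 0.12). Of these 12 calls, 4, 5 and 7 ended when untreated replicate 1, 2 or 3 was left out and 7, 6 and 4 ended without oestradiol replicate 1, 2 or 3, with an adjusted p of up to 0.167 (Cyp1b1), and Coq8a, Pgd, Rarg, Slc19a2 and Slc6a6 kept the call in all 6 of these fits. The calls of Insr, Igf1r, Pik3ip1, Pim3, Cyp1b1 and Pgd ended in the fit with the most variable probe set of each gene.

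Of the other large rises, Serpinb9b, a serpin gene of the granzyme B inhibitor family, went from 50.1, 69.2 and 55.4 to 177, 156 and 145 (log2 change 1.34 ± 0.16, adjusted p = 0.00193). Asb4, which encodes a substrate adaptor of a ubiquitin ligase, went from 125.02, 176 and 151 to 396, 373 and 359 (log2 change 1.28 ± 0.17, adjusted p = 0.00365). These genes had tight groups. Myf5, known as a myogenic transcription factor gene, read 104, 151 and 128 untreated and 269, 284 and 499 after E2, with replicate 3 well above the others (log2 change 1.36 ± 0.25, adjusted p = 0.0148). Pdia2 and Nlrp10, genes of a disulphide isomerase and of a NOD-like receptor, were dim and variable, at 83.9, 147 and 39.02 and 96.5, 119 and 61.8 after E2 against 33.3, 27.9 and 23.04 and 36.3, 33.8 and 29.6 untreated. Krt20, Tnnc1 and Dusp26 rose by 1.11 ± 0.23, 1.02 ± 0.19 and 0.81 ± 0.10. Of these 8 calls, 3, 3 and 5 ended when untreated replicate 1, 2 or 3 was left out and 4, 4 and 2 ended without oestradiol replicate 1, 2 or 3, with an adjusted p of up to 0.151 (Pdia2), and Asb4, Dusp26 and Serpinb9b kept the call in all 6 of these fits.

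**Figure D3:**
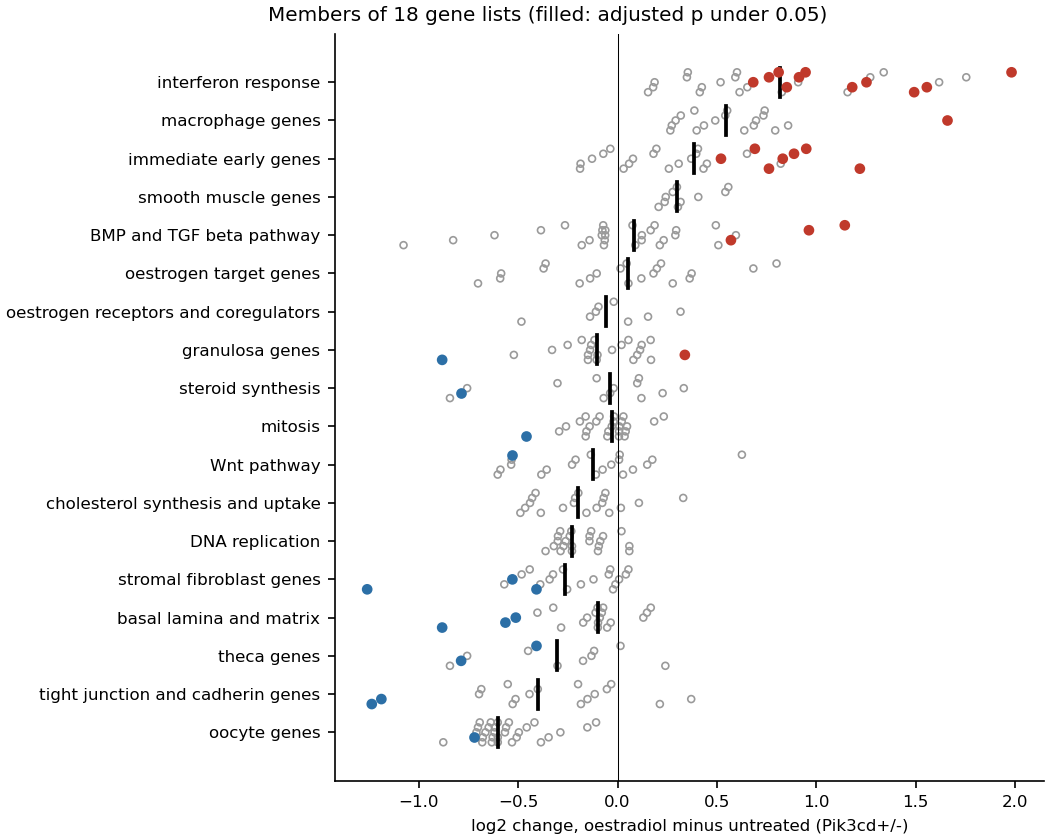
Each circle is 1 tested gene of the named list and its position on the x axis the log2 change, E2 minus untreated, in Pik3cd+/- ovaries; filled circles passed an adjusted p of 0.05, red for rises and blue for falls, and the black bar is the list's median. The interferon list has 11 filled circles and a median of 0.82, and the oocyte list 1 filled circle and a median of -0.60.

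No steroidogenic enzyme gene passed the test for a rise, and 1 fell. Of 13 steroid synthesis genes, Hsd3b1 was the only call, against 1.62% of all genes called. This gene encodes the 3beta-hydroxysteroid dehydrogenase that converts pregnenolone to progesterone; it was among the brightest genes of these ovaries and read 9842, 10059 and 10655 untreated and 7637, 5305 and 5055 after E2 (log2 change -0.79 ± 0.13, adjusted p = 0.0099). E2 replicate 1 was the least reduced. Cyp11a1, which encodes the side-chain cleavage enzyme, read 881, 1132 and 2004 and 1619.6, 528 and 396, and Cyp17a1, the androgen-producing enzyme gene of theca, 315, 664 and 417 and 729.7, 220.3 and 105. In both, E2 replicate 1 lay within or above the untreated range and the other E2 arrays below it, and the changes of -0.84 ± 0.46 and -0.76 ± 0.61 did not pass (adjusted p = 0.367 and 0.572). Star, which encodes the cholesterol transporter into mitochondria, was dim in both groups, at 155, 104 and 87.96 and 85.3, 92.6 and 91.3 (log2 change -0.30 ± 0.56). The nuclear receptor genes Nr5a1 and Nr5a2 changed by -0.02 ± 0.15 and -0.11 ± 0.15, and no call was made among 19 genes of cholesterol synthesis and uptake (median -0.20). The mean level of the theca list was 9.94, 9.99 and 10.02 untreated and 9.92, 9.58 and 9.44 after E2, so the first E2 array nearly reached the untreated ones. The call of Hsd3b1 ended without untreated replicate 3 and without E2 replicate 2, with an adjusted p of up to 0.0613.

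Among 22 granulosa genes there were 2 calls, against 1.62% of all genes: Igf1r rose and Vcan fell, and the list's median was -0.10. Fshr, the FSH receptor gene, read 194, 183 and 234 untreated and 250.4, 165 and 145 after E2 (log2 change -0.15 ± 0.30, adjusted p = 0.858), and Amh and Inha, hormone genes of growing follicles, changed by -0.15 ± 0.13 and 0.02 ± 0.12. Kitl, the granulosa ligand for the oocyte receptor Kit, had lower values on all E2 arrays, 1649, 1541 and 1459 against 2261, 2041 and 2390.4. It missed the threshold in the main fit (log2 change -0.52 ± 0.14, adjusted p = 0.0734). The model of the compared arrays alone called Kitl lower. Foxl2, the granulosa identity factor gene, read 2971, 2838 and 2883 and 3141, 2798 and 2239 (log2 change -0.10 ± 0.13, adjusted p = 0.759). Ccnd2, the cyclin that FSH and oestradiol raise in granulosa cells, overlapped between the groups (log2 change -0.14 ± 0.12, adjusted p = 0.622).

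Oocyte genes were lower on the E2 arrays almost without exception, but few tests passed. All 30 tested members had a negative change, 26 had all E2 arrays below the untreated ones (14.6% of all genes did), and the median was -0.60, while only Nobox was called. Nobox, a homeobox gene that controls early oocyte growth, read 712, 622.01 and 549 untreated and 439.97, 359 and 335 after E2 (log2 change -0.72 ± 0.17, adjusted p = 0.0442). Gdf9, the growth factor that oocytes send to granulosa cells, read 5349, 5414 and 5176 and 3832, 3231 and 3330.4 (log2 change -0.62 ± 0.17, adjusted p = 0.0721), and Zp2 of the zona pellucida 1857, 1739 and 1434 and 1108, 1062 and 1114 (log2 change -0.60 ± 0.15, adjusted p = 0.0583). The model of the 6 compared arrays alone also called Gdf9 lower. Nlrp5, a maternal-effect gene, had the most negative change of the list, -0.88 ± 0.22 (adjusted p = 0.0543). In Pik3cd-/- ovaries the list's median change after E2 was -0.29, and -0.45 without E2 replicate 2 of that genotype. Its mean level there was 10.20, 10.50 and 10.36 untreated and 10.34, 10.39 and 9.52 after E2. Only E2 replicate 3 of that genotype lay below its untreated arrays, and leaving out replicate 2 gives that array more weight. In Pik3cd+/- ovaries the mean level of the list was 9.80, 9.75 and 9.62 untreated and 9.27, 9.10 and 9.14 after E2. The call of Nobox ended when any 1 of the 6 arrays was left out, with an adjusted p of up to 0.151.

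Stromal and matrix genes supplied several of the falls. Over all genes 0.44% fell, the share to set beside each count of falls in this paragraph. Of 20 stromal fibroblast genes 3 fell and none rose, with a median of -0.26. Tcf21, a transcription factor gene of mesenchymal progenitors, read 2686, 2611 and 2640.3 untreated and 1892, 1906 and 1701 after E2 (log2 change -0.53 ± 0.08, adjusted p = 0.00644). Nr2f2, which encodes COUP-TFII of theca and stroma, fell by a smaller step, from 1428, 1356 and 1361 to 1131, 1060.0 and 935 (log2 change -0.41 ± 0.09, adjusted p = 0.0332), and Scara5, a ferritin receptor gene, fell from 527, 415 and 508 to 172, 236 and 184 (log2 change -1.26 ± 0.30, adjusted p = 0.0498). Among 20 basal lamina and matrix genes 3 fell: Vcan, the large hyaluronan-binding proteoglycan versican, from 939, 699 and 997 to 430.97, 424 and 556 (log2 change -0.88 ± 0.19, adjusted p = 0.0328), the basement membrane collagen gene Col4a4 (-0.51 ± 0.12) and the laminin gene Lama2 (-0.56 ± 0.13). In a list of network collagens drawn up after values had been seen, 4 of 10 fell and none rose, namely Col8a1 (-0.70 ± 0.13), Col8a2 (-0.79 ± 0.18), Col18a1 (-0.50 ± 0.12) and Col4a4. Col8a1, a chain of type VIII collagen, read 95.3, 114 and 101 after E2 against 193, 173 and 155.95 untreated. Ltbp2, a gene of a matrix protein related to the TGF beta binding proteins, changed by -0.70 ± 0.16. Of 10 smooth muscle genes none was called; 9 had all E2 arrays above the untreated ones, against 14.2% of all genes, the median was 0.30, and their mean level was 9.51, 9.62 and 9.33 untreated and 9.85, 9.83 and 9.79 after E2. The part of a changed tissue composition in the stromal falls was not tested. Of the 10 calls, 9, 6 and 8 ended when untreated replicate 1, 2 or 3 was left out and 7, 8 and 6 ended without oestradiol replicate 1, 2 or 3, with an adjusted p of up to 0.174 (Ltbp2), and Tcf21 kept the call in all 6 of these fits.

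**Figure D4:**
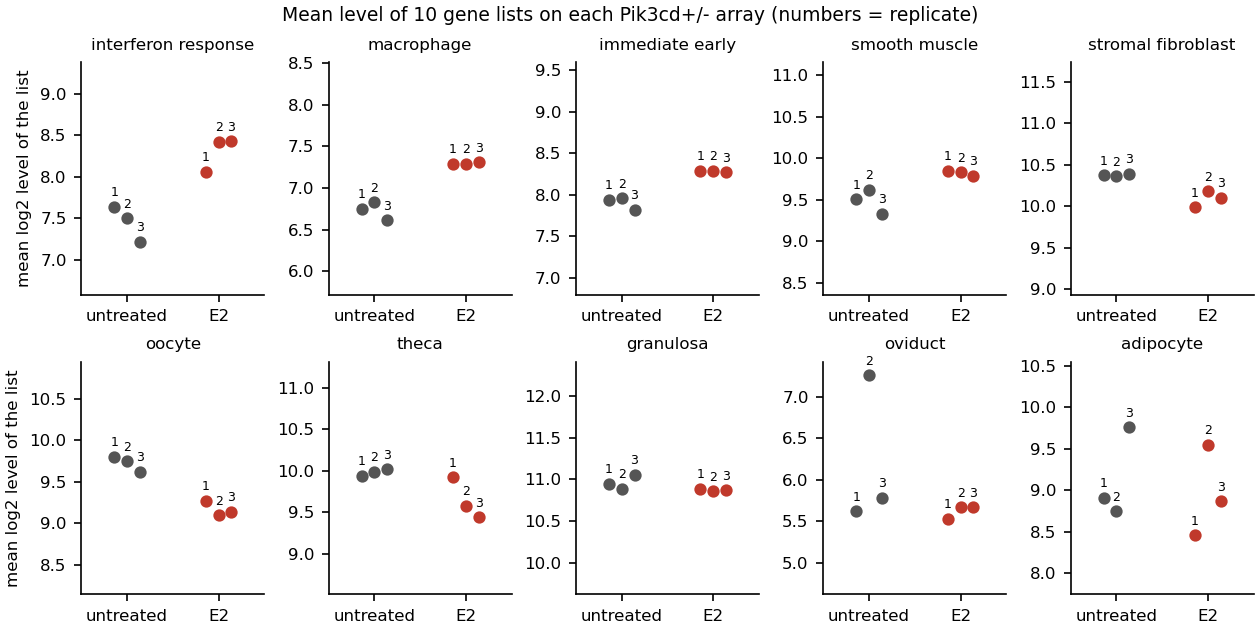
Mean log2 level of 10 gene lists on each of the 6 Pik3cd+/- arrays, numbered by replicate, on axes of equal span. Interferon, macrophage and immediate early genes are higher and oocyte genes lower on every E2 array; untreated replicate 2 stands apart in oviduct genes, at 7.26, and E2 replicate 1 in theca genes, at 9.92.

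Beside Scara5, the largest falls were of genes from several families. Zbtb16, which encodes the transcription factor PLZF and is induced by glucocorticoids and progesterone, read 115, 134 and 146 untreated and 45.2, 46.9 and 46.5 after E2 (log2 change -1.35 ± 0.25, adjusted p = 0.0159). It was the only call among 17 glucocorticoid-inducible genes, whose median was 0.11, and 1.62% of all genes were called. Cldn1, the tight junction protein claudin 1, fell from 299.7, 249.97 and 328 to 105, 131 and 120.1 (log2 change -1.24 ± 0.21, adjusted p = 0.0113), and Pcdh8, a protocadherin gene, from 109, 90.5 and 161 to 42.1, 42.00 and 56.3 (log2 change -1.19 ± 0.24, adjusted p = 0.0224). They were the calls among 17 tight junction and cadherin genes, of which 8 had all E2 arrays below the untreated ones, against 14.6% of all genes (median -0.40). Il13ra2, the decoy receptor for interleukin 13, had the smallest p of all falls and went from 267, 199.6 and 205 to 113, 102 and 81.9 (log2 change -1.11 ± 0.13, adjusted p = 0.00193). Prss35, a gene of the serine protease family, fell from 818, 853 and 962 to 530.4, 405 and 382.01 (log2 change -0.997 ± 0.18, adjusted p = 0.0141). Mapk13, a p38 kinase gene, went from 153, 126 and 154 to 70.4, 74.3 and 72.7 (log2 change -0.91 ± 0.15, adjusted p = 0.00905), with E2 arrays that lay close together. Alcam, a cell adhesion molecule gene, and Rap2b, a small GTPase gene, changed by -0.89 ± 0.20 and -0.71 ± 0.12. Aard, Nell1, the calcium pump gene Atp2b3, Gsg1l and Lonrf2 changed by -1.20 ± 0.24, -1.09 ± 0.25, -1.05 ± 0.18, -0.99 ± 0.17 and -0.76 ± 0.16 and, Aard apart, were dim genes, with Nell1 at 30.6, 37.01 and 43.3 after E2 against 85.3, 76.9 and 103.03. Counting Ptx3, of these 14 calls, 6, 3 and 11 ended when untreated replicate 1, 2 or 3 was left out and 6, 10 and 5 ended without oestradiol replicate 1, 2 or 3, with an adjusted p of up to 0.175 (Nell1), and Il13ra2 and Mapk13 kept the call in all 6 of these fits.

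Chaperone genes were examined with a list drawn up after values had been seen. Of 24 tested, 3 fell and 1 rose, against 0.44% and 1.18% of all genes. Hsp90aa1, the inducible cytosolic HSP90 that also holds steroid receptors in their hormone-binding form, fell from 7121, 6783 and 7047 to 4471, 4982 and 4638 (log2 change -0.57 ± 0.08, adjusted p = 0.00486). Hsph1 and Hspa4l, members of the HSP110 family, fell from 2150.4, 1988 and 2387 to 1309, 1282 and 1156 and from 307, 318 and 253 to 195, 212 and 171 (-0.79 ± 0.18 and -0.58 ± 0.13). Bag3, a co-chaperone gene, rose by 0.44 ± 0.09. A heat shock element, searched as GAANNTTCNNGAA on both strands, lay in the promoter windows of 4 of 21 list members (19.0%), Hsph1 among them, and in 0.603% of all windows. Of tested genes with a window, 0.576% held it. Of the 4 calls, 2, 3 and 3 ended when untreated replicate 1, 2 or 3 was left out and 3, 3 and 3 ended without oestradiol replicate 1, 2 or 3, with an adjusted p of up to 0.151 (Hsph1), and Hsp90aa1 kept the call in all 6 of these fits.

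Few cell cycle genes were called, and of all genes 1.62% were. Of 25 mitosis genes, Ncapg, a condensin subunit gene, was the only call, falling from 923, 845 and 814 to 669.9, 579 and 619 (log2 change -0.46 ± 0.10, adjusted p = 0.0318), and the list's median was -0.03. Its call ended when any 1 of the 6 arrays was left out, with an adjusted p of up to 0.122. None of 22 DNA replication genes passed; 13 had all E2 arrays below the untreated ones, against 14.6% of all genes, and the median was -0.23. None of 14 genes of the BCL2 family and follicle death passed (median 0.13).

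The same E2 schedule in Pik3cd-/- ovaries called 7 genes (0.0551% of all tested), 1 higher and 6 lower, and 3, 5 and 2 without E2 replicates 1, 2 and 3 or 3, 3 and 24 without untreated replicates 1, 2 and 3 of that genotype. The call counts do not show that the genotypes differ. The test of the difference between the 2 responses called 0 genes (0%) with limma, while 924 genes (7.27%) had an unadjusted p under 0.05 and the smallest adjusted p was 0.25, for Coq8a. The fit of the 4 groups alone and the fit with the replicate number as a block each called 1, and 71 were called without Pik3cd-/- E2 replicate 3. Of the 7 genes, 4 were also called in Pik3cd+/-, which is 4 of 206 there: Chil3, Prss35, Hsp90aa1 and 6820431F20Rik. Chil3 rose in Pik3cd-/- by 2.23 ± 0.28 from 11.8, 12.4 and 11.3 to 108, 119 and 50.8, Prss35 changed by -1.09 ± 0.18 and Hsp90aa1 by -0.51 ± 0.08. The genes that rose in Pik3cd+/- had a median change of 0.16 in Pik3cd-/- and 117 of 150 were positive there, against 38.3% of all genes. The genes that fell had a median of -0.33 with 53 of 56 negative, against 61.7% of all genes. Both sets were selected by their change in Pik3cd+/-, which by itself makes smaller medians likely on other arrays. The sizes therefore cannot show a weaker response. Pik3cd-/- E2 replicate 2 stood apart: the mean log2 level of the stromal list was 9.49 on it against 10.31 and 10.66 on the other E2 arrays of that genotype, that of the smooth muscle list 8.83 against 9.89 and 9.91, and that of the adipocyte list 6.16 against 9.46 and 10.47. With it left out, as was decided after seeing the data, the risen genes had a median of 0.20 with 128 positive (41.1% of all genes) and the fallen genes -0.38 with 53 negative (58.9%). The interferon list had a median of 0.18 (0.19 without that array) in Pik3cd-/- against 0.82 in Pik3cd+/-, and Ifit1 read 85.5, 91.9 and 69.9 untreated and 137, 57.5 and 109 after E2 there.

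The genes with the smallest p for the genotype difference are given as values, since none passed. Coq8a changed by 0.62 ± 0.09 in Pik3cd+/- and -0.18 ± 0.09 in Pik3cd-/- (difference 0.80 ± 0.13). Itih2 changed by 1.65 ± 0.27 and -0.46 ± 0.27 (adjusted p of the difference = 0.309), and Ntn4, which read 454, 642 and 523.03 untreated and 535, 479 and 477 after E2 in Pik3cd-/-, by 1.55 ± 0.25 and -0.10 ± 0.25 (adjusted p = 0.386). Ddhd1, Stox2, P3h2, Prkd1, Vit, Ghitm and Bcan completed the 10, with differences of -1.06, -0.75, 0.63, 0.79, 0.88, 0.74 and 0.74.

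**Figure D5:**
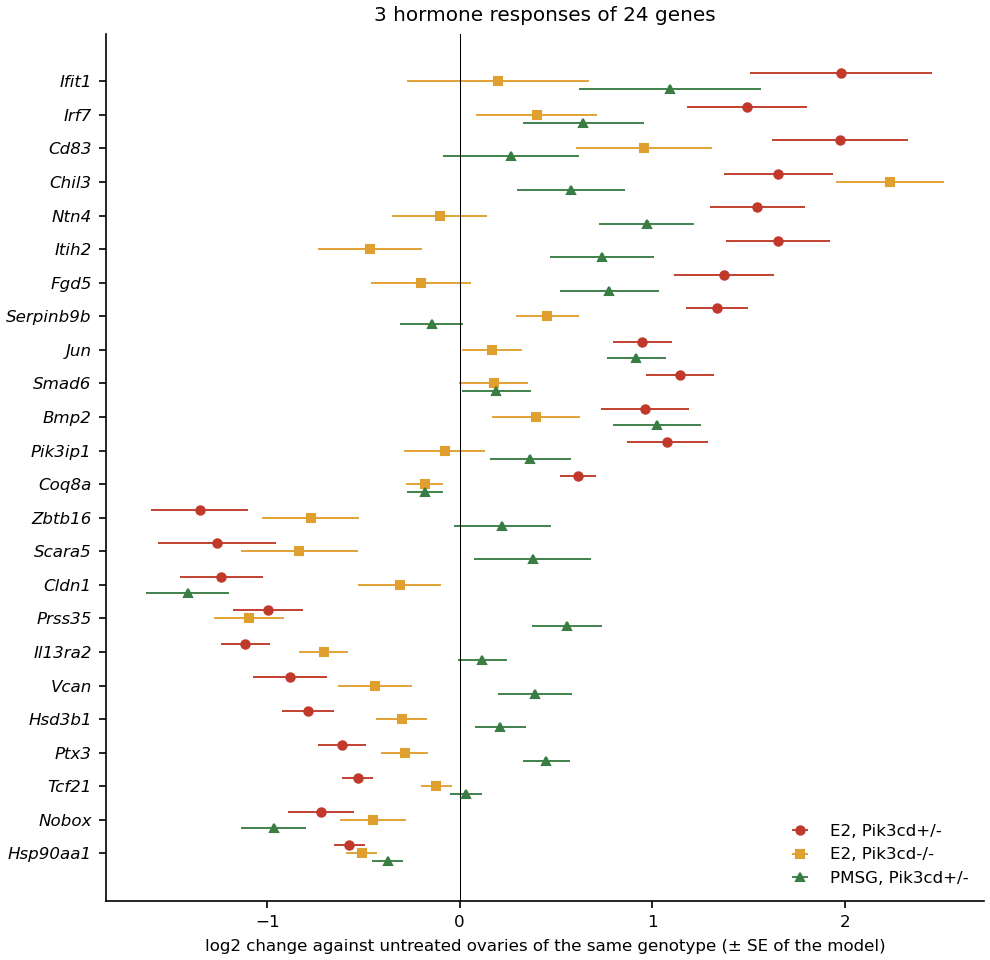
Log2 change (x axis) with its SE for 24 genes in 3 responses, each against untreated ovaries of the same genotype: E2 in Pik3cd+/- (red circles), E2 in Pik3cd-/- (yellow squares) and PMSG in Pik3cd+/- (green triangles). The 2 Pik3cd+/- responses share their 3 untreated arrays; Ntn4 changed by 1.55, -0.10 and 0.97 in these responses and Prss35 by -0.997, -1.09 and 0.56.

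Set directly against PMSG-treated ovaries of the same genotype, E2-treated ovaries differed in 1423 genes (11.2%), 973 higher and 450 lower, and the count was 830, 613 and 1358 without E2 replicates 1, 2 and 3 and 793, 666 and 1661 without PMSG replicates 1, 2 and 3. Treatment and time after injection differ together in this comparison, 72 h against 44 h. The mean level of the oviduct list ranged from 5.57 to 6.87 on the PMSG arrays (median 5.72), against 5.53 to 5.67 after E2. PMSG itself called 2255 genes (17.7%) against the same untreated arrays. Genes of steroid synthesis were among the 10 widest gaps below PMSG. Grem1 read 803, 792 and 2478 after PMSG and 119.9, 46.4 and 28.5 after E2 (E2 minus PMSG -4.20 ± 0.65, adjusted p = 0.00119). Cyp17a1 read 3544, 3257 and 5809.9 after PMSG, with a difference of -3.93 ± 0.61, and Cyp11a1 5500.3, 8459.7 and 7993, with a difference of -3.35 ± 0.46. Star read 198, 2011 and 384 after PMSG, a wide spread, against values under 100 on every E2 array. Gabrb2, Comp, Sfrp4, Saa3, Hao2 and Dpep1 had differences of -3.36, -2.78, -2.72, -2.51, -2.49 and -2.43. In the other direction Gulo, the vitamin C synthesis gene, read 427.98, 489.7 and 351 after E2 and 123, 134 and 95.6 after PMSG (difference 1.77 ± 0.21, adjusted p = 1.6e-04), with 299.6, 240.1 and 153 untreated between them. Otor, Kazald1, Apoa1, Nrsn1, Mycl and Stc1 were higher after E2 than after PMSG by 1.58, 1.48, 1.47, 1.46, 1.46 and 1.45, and none of those 6 was called against untreated ovaries.

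Members of the E2 response are placed beside their PMSG values, which rest on the same untreated arrays. Median changes of the interferon, macrophage, immediate early and oocyte lists were 0.49, 0.91, 0.54 and -0.88 after PMSG. After E2 they were 0.82, 0.55, 0.38 and -0.60. Called higher after PMSG were 6 of 30 interferon, 7 of 18 macrophage and 16 of 26 immediate early genes. Called lower were 25 of 30 oocyte genes, against 17.7% of all genes called either way. Stromal and steroid synthesis lists had medians of -0.26 and -0.04 after E2 and 0.07 and 0.68 after PMSG. Serpinb9b changed by 1.34 ± 0.16 after E2 and -0.15 ± 0.16 after PMSG, and the direct difference was 1.48 ± 0.16 (adjusted p = 1.0e-04). Cd83 changed by 1.98 and 0.27 (difference 1.71 ± 0.35, adjusted p = 0.00681), and Pdia2 by 1.28 and -0.30 (difference 1.58 ± 0.29). Vcan fell after E2 and read 1029, 872 and 1661 after PMSG (difference -1.28 ± 0.19, adjusted p = 9.9e-04), and Prss35 read 1005, 1489.7 and 1449 after PMSG (difference -1.56 ± 0.18, adjusted p = 1.4e-04). Hsd3b1 read 10394, 11814 and 13332 after PMSG, with a difference of -0.999 ± 0.13 (adjusted p = 4.4e-04). For Jun, Bmp2, Gpx3 and Asb4 the changes after E2 were 0.95, 0.96, 1.29 and 1.28 and after PMSG 0.92, 1.02, 1.28 and 1.504; the direct differences had adjusted p of 0.921, 0.892, 0.999 and 0.436.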

How the data were processed

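Total ovarian RNA of 18 samples in 6 groups of 3 was measured on Affymetrix Mouse Genome 430 2.0 arrays. Each deposited file value is a linear intensity of a single probe set, made by the authors with MAS5, per the submitters' processing notes; the version is not given in the sources used here. No further normalization was applied. Of 45101 probe sets, 64 controls, 9160 without and 932 with several gene symbols were left out; the brightest of the 34945 others stood for each of 18193 genes. Values were tested as log2(value + 8.58), the 10th percentile of all values, for 12713 genes with a group mean above the median of 5.87. Group means of all 6 groups were estimated together in limma 3.58.1 under R 4.3.3 (eBayes with trend; 12 residual and 3.66 prior degrees of freedom), with two-sided tests and Benjamini-Hochberg adjustment at 0.05. The procedure was tested on simulated data. The number of arrays limits precision. The p-values rest on the spread between samples labelled biological replicates, pooled over all 6 groups and not taken from the compared groups alone. Genes were named as the 20 largest called rises and falls, called members of the gene lists, a panel of ovarian genes, the 10 largest called differences from PMSG in each direction and the 10 smallest p for the genotype difference; other named genes, such as Rarg, Pik3ip1, Pdgfb and Krt20, were picked after their values were seen. The members and the lists were chosen with earlier results of these data known, and 4 lists were drawn up after values of these arrays were seen. Promoter sequences are from RefSeq (GRCm38.p6). Pairing of the arrays by replicate number was not established and not used in the main fit. Same-numbered E2 and untreated arrays correlated at 0.22, -0.018 and 0.28 in their deviations from group means. Unlike-numbered arrays correlated at -0.272 to 0.102, below the values of replicates 1 and 3 but not of replicate 2 throughout. Alternatives changed the pseudocount, filter, scaling, variance model, arrays in the fit, block and probe set, and left out each array.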

Additional observations from a re-analysis of the deposited data

How the results depend on the processing

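The 206 calls became 198 with a pseudocount of 1, 221 with 64, 160 with no filter, 168 with a filter at the 70th percentile, 269 with quantile normalization (179 higher, 90 lower), 232 with arrays centred (189 higher, 43 lower), 206 without a trend, 193 with the most variable probe set and 764 with only the compared groups (366 higher, 398 lower). The 37 changes of at least 2-fold became 19 (18 and 1) with a pseudocount of 64, 62 (50 higher) with only the compared groups, and 119 by group means with no test; 4 fell at least 2-fold with the stricter filter. With the most variable probe set, 46 of the 206 genes were tested and no longer called, among them Atoh8, Col18a1, Col4a4, Ncapg and Pde7b. Leaving out 1 array gave 33 to 110 calls (21 to 87 higher, 9 to 25 lower) and 7 to 34 of at least 2-fold (5 to 25 higher, 2 to 9 lower). None of the 206 genes called after E2 in Pik3cd+/- changed sign in an alternative fit that tested it. The signs of calls in the other comparisons were not checked.

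With the replicate number as a block, although pairing by number was not established, 158 genes were called, 2 in Pik3cd-/- (1 lower) and 1 (higher) for the genotype difference. The comparison with PMSG kept 1171 of its 1423 calls. The 7 calls in Pik3cd-/- became 2 with no filter (1 lower), 3 with quantile normalization (2 lower), 16 with the most variable probe set (15 lower) and 0 with only the compared groups, where 802 had an unadjusted p under 0.05 in limma, and 0 were higher with the stricter filter; leaving out 1 array gave 2 to 24 (1 to 7 higher, 1 to 17 lower). The genotype difference called 1 (higher) with only its groups and 0 to 71 (0 to 15 higher, 0 to 56 lower) without 1 array. E2 against PMSG called 613 to 1661 (351 to 1230 higher, 226 to 431 lower) without 1 array, and 608 higher with only its groups. The causes of these changes were not tested. With 3 arrays a group, the smallest called rise and fall were 0.26 and -0.23 on the log2 scale.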
